A study of Rattus norvegicus with 9 samples.

Results

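Astrocytes, the star-shaped glial cells of the brain, are described here by 10 of their marker genes: Gfap, Aqp4, S100b, Glul, Slc1a2, Slc1a3, Aldoc, Gja1, Agt and Sparcl1. The genes were chosen by name, and every probe set whose platform annotation gives exactly 1 of these symbols was taken. Of the 10 genes, 9 had such a probe set. Gfap, the intermediate filament gene most often used to mark astrocytes, is the symbol of none of the probe sets used here, and its level was not analysed here. The 9 genes held 20 of the 8740 probe sets, on a platform on which 4736 genes were named. A filter on dim signals kept 16 of the 20, with at least 1 for each of the 9 genes.

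The tissue was the supraoptic nucleus, a hypothalamic nucleus whose large (magnocellular) neurons make vasopressin and oxytocin. Its RNA was hybridised to 9 Affymetrix rat arrays: 3 from control rats, 3 from rats dehydrated for 1 day and 3 from rats dehydrated for 3 days. The animals were Sprague Dawley males, 10 to 12 weeks old, and the labels name no other treatment and no genetic change in any group. The labels do not state whether the 3 arrays of a group hold RNA of separate animals or of pools. Each p-value therefore sets a group difference against the spread of these samples only, and that spread may be technical. Each array carries a letter (a, b or c) in its title, and arrays of the same letter varied together across the groups.

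Astrocytes clear glutamate from the space around synapses through the transporters encoded by Slc1a2 and Slc1a3, and glutamine synthetase (Glul) turns it into glutamine. They carry the water channel Aqp4 on the processes that wrap blood vessels, are coupled to each other through gap junctions of connexin 43 (Gja1), and secrete proteins such as angiotensinogen (Agt). In the supraoptic nucleus their fine processes lie between the magnocellular neurons and are known to withdraw when the animal is dehydrated. Several of these genes are not exclusive to astrocytes: S100b and Glul are also expressed in oligodendrocytes, and Sparcl1 in cells of blood vessels. In RNA of whole tissue, fewer cells of a type and less RNA per cell cannot be told apart.

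The arrays were of uneven range, and no probe set passed the test in any comparison. The brightest signal was 2239 on 1-day array c and 2105 on control array c, while it lay between 3867 and 6295 on the other 7 arrays. The array medians ran from 26.8 to 40.3. The ratio of the 3′ to the 5′ signal of beta-actin, a sign of RNA and labelling quality, was 0.743 to 1.07 on control, 1.13 to 1.48 on 1-day and 0.991 to 1.43 on 3-day arrays. The same ratio of Gapdh was 0.926 to 1.09 on control, 0.850 to 1.05 on 1-day and 0.892 to 1.55 on 3-day arrays. Both upper values at 3 days, 1.43 for beta-actin and 1.55 for Gapdh, were on array c, which also had the brightest signal of all arrays (6295). limma, a linear-model test with variances moderated across probe sets, called 0 of 5247 probe sets (0 percent) in each of the 3 comparisons at an adjusted p of 0.05. At an unadjusted p under 0.05 there were 53 probe sets at 1 day against control, 90 at 3 days against control and 96 at 3 days against 1 day.

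Accordingly, none of the 16 probe sets of astrocyte genes was called in any comparison, and Sparcl1 at 3 days against control was the only one with an unadjusted p under 0.05 in the fit without the letter. With the letter in the fit none was called either, and 3 had an unadjusted p under 0.05 at 3 days against control, all higher at 3 days: Glul M91652complete_seq_g_at (0.0207), Sparcl1 (0.0369) and Aldoc M63656_s_at (0.0421). A further 3 did so at 3 days against 1 day, all lower at 3 days, Slc1a3 X63744_g_at (0.00991), Aqp4 (0.0276) and Glul M91652complete_seq_at (0.0425), and none at 1 day against control. The smallest adjusted p among them was 0.770. Over all 5247 tested probe sets, the limma fit with the letter gave 270 with an unadjusted p under 0.05 at 3 days against control. It gave 275 at 3 days against 1 day and 136 at 1 day against control. The 9 genes did not share a direction. Relative to control, the 3-day arrays were on average higher for Aldoc, Sparcl1, Glul, Slc1a3 and Slc1a2 and lower for Agt, Aqp4 and Gja1, and S100b had a difference close to 0. After quantile normalization the Glul value turned from 0.48 to -0.12 and the S100b value was -0.47. For Aldoc, Sparcl1 and Slc1a3 every 3-day array exceeded every control array. That held for 4.73 percent of all tested probe sets and for 19.2 percent of the other probe sets with a mean signal of at least 1000. For Agt, every 1-day array was below every control array, as for 1.58 percent of all tested probe sets. The 3-day arrays spread from the lowest to the highest value of Agt.

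**Figure D1:**
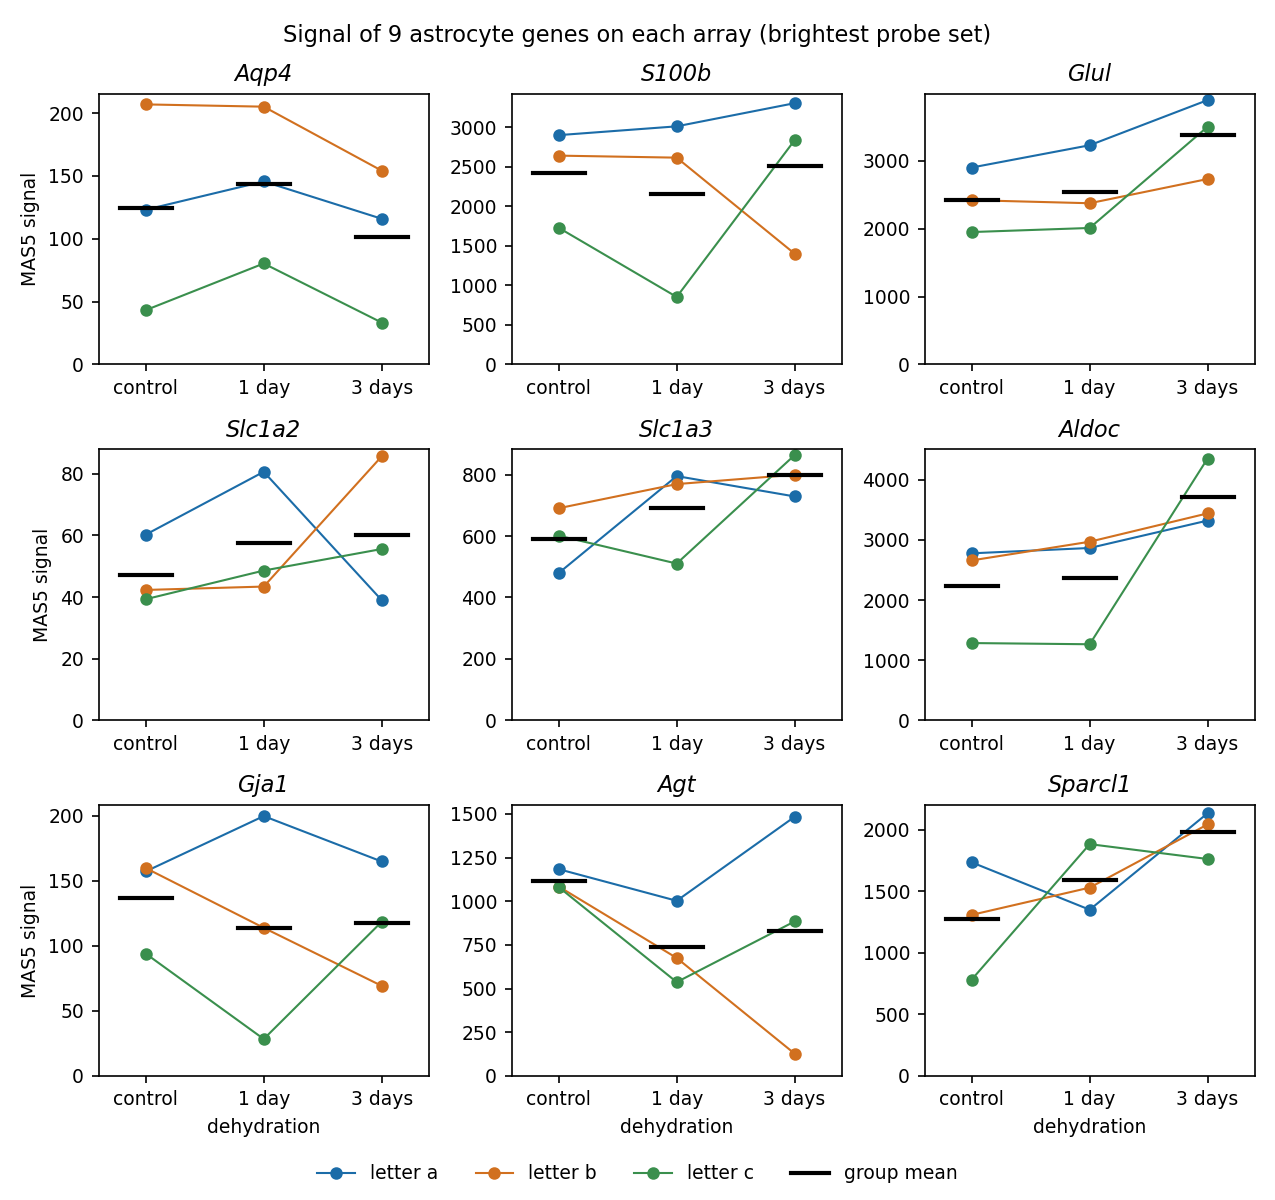
MAS5 signal (linear axis from 0, arbitrary units) of the brightest probe set of each of 9 astrocyte genes on the 9 arrays, by days of dehydration; points are arrays, lines join arrays of the same letter and black bars are group means. The 3-day points of Aldoc, Slc1a3 and Sparcl1 all lie above the control points, Aqp4 keeps the order b, a, c in every group, and S100b, Gja1 and Agt have a low point on 3-day array b.

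Promoter windows of the genes whose 3-day signals stood clear of the control signals in at least 1 probe set (Aldoc, Sparcl1, Slc1a3 and Glul), and of the water channel gene Aqp4, are printed here so that the sequence upstream of these genes can be read beside their values. The choice was made after their values were seen. Each window is the 250 bases before a transcription start in RefSeq on the GRCr8 rat assembly, 5′ to 3′ on the gene's own strand; 9 of the 10 genes had 1 or more windows, 14 in all, and Agt was not among them. Capitals mark matches, on either strand, to 1 of 6 short motifs. The core of the tonicity-responsive element was searched as TGGAAA and the GC box, which Sp1-type factors bind, as GGGCGG. The element that nuclear factor Y binds was searched as CCAAT. The element bound by the TATA-binding protein was searched as TATAAA. For AP-1 the run searched was TGANTCA, and for STAT factors it was TTCNNNGAA. Matches of different motifs may share bases.
Aldoc, chr10:63715294-63715543, plus strand: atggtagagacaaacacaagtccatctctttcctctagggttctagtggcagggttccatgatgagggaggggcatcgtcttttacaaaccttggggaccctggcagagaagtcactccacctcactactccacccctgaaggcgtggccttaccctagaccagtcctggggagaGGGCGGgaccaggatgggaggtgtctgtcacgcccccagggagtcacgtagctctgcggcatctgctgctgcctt
Sparcl1, chr14:5937234-5937483, plus strand: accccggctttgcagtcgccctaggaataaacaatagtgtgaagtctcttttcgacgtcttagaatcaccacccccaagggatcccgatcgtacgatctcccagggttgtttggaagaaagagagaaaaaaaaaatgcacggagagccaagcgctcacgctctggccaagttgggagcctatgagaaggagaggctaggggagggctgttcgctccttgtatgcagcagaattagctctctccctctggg
Slc1a3, chr2:59557809-59558058, minus strand, the most upstream of 3 close starts: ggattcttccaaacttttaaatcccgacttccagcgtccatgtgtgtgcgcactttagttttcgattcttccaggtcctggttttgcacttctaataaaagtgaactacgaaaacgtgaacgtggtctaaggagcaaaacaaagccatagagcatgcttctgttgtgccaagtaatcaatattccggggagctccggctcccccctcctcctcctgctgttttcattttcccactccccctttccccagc
Glul, chr13:68575816-68576065, plus strand, the downstream of its starts: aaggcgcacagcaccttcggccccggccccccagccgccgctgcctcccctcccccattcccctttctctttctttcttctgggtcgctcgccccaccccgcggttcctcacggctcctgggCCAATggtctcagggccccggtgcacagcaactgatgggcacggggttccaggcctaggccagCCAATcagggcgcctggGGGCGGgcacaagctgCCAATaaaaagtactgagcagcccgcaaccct
Aqp4, chr18:6798843-6799092, minus strand, the upstream of its starts: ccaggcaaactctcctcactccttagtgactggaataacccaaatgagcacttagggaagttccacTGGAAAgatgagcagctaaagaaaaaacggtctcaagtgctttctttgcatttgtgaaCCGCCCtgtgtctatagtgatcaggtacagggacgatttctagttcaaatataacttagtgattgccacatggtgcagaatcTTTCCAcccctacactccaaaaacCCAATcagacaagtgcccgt

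The windows of these genes differed in what they held. The Aldoc window held 1 GC box, the Glul window held 3 CCAAT boxes and a GC box, and the Aqp4 window held TGGAAA on both strands, a GC box and a CCAAT box. No motif of the 6 was found in the Sparcl1 and Slc1a3 windows. Over all 33469 windows in the table, TGGAAA was present in 19.7 percent, GGGCGG in 30.5 percent, CCAAT in 34.0 percent of windows, TATAAA in 12.9 percent, TGANTCA in 6.34 percent and TTCNNNGAA in 7.67 percent. Among the 14 windows of the astrocyte genes, TGGAAA was in 3 (of Aqp4 and Slc1a2), GGGCGG in 4, CCAAT in 4, TGANTCA in 1 (of Gja1) and the other 2 motifs in 0. A match is a run of letters and not a measured binding site.

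The glutamate transporter genes had 5 tested probe sets. Slc1a3, the glutamate transporter of radial glia and astrocytes, had signals of 479.8, 691.1 and 601.4 on control arrays a, b and c, of 795.8, 769.7 and 510.5 at 1 day and of 729.4, 800.2 and 864.2 at 3 days on its brightest probe set (S59158_at). All 3-day arrays exceeded all control arrays, and the 1-day arrays spanned the control range. Slc1a3 averaged 798 ± 67.4 at 3 days and 591 ± 106 in control (SD, n = 3 each), a log2 fold change of 0.44 ± 0.25 (SE; 95 percent interval -0.12 to 1.00; limma adjusted p = 1.00). With quantile normalization the value was 0.45.

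The dimmer probe sets of Slc1a3 did not follow the brightest one. S75687_s_at averaged 367 ± 117 at 3 days and 311 ± 89.3 in control, with a log2 fold change of 0.21 ± 0.34. X63744_g_at averaged 48.7 ± 29.3 at 3 days and 67.6 ± 36.7 in control, with a log2 fold change of -0.49 ± 0.51. Against 1 day, where it averaged 96.2 ± 45.0, X63744_g_at was lower at 3 days by a log2 fold change of -0.996 ± 0.51 (limma adjusted p = 0.998), and lower in each of the 3 letter pairs. Over the 9 arrays the 3 pairs of Slc1a3 probe sets had correlations of 0.10, -0.057 and -0.054, so the probe sets of this gene gave no common profile. A further Slc1a3 probe set, X63744_at, was below the filter, with means of 10.1 in control, 20.1 at 1 day and 16.6 at 3 days.

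Slc1a2, the main glutamate transporter of the mature forebrain, had 4 probe sets, of which 2 passed the filter. On rc_AI638980_at its signals were 60.3, 42.3 and 39.3 on control arrays a, b and c, 80.7, 43.4 and 48.6 at 1 day and 39.0, 85.7 and 55.6 at 3 days. The groups overlapped, and the highest array was of letter a in control and at 1 day but of letter b at 3 days. The log2 fold change at 3 days against control was 0.28 ± 0.38, with values from 0.0031 (without 3-day array b) to 0.53 (without 3-day array a) when 1 array was left out. The value at 1 day against control was 0.24 ± 0.38, or -0.017 without 1-day array a.

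The second tested Slc1a2 probe set, U15098_at, read 29.9, 39.6 and 11.4 on the control arrays, 54.3, 51.3 and 6.5 at 1 day and 67.9, 68.6 and 17.1 at 3 days. Array c was the lowest of its group each time, and the 3-day array was above the control array in 3 of 3 letter pairs. This probe set was also dim. Its control mean of 27.0 is near the filter value of 23.1, and array c was below that value in every group. Its log2 fold change at 3 days against control was 0.76 ± 0.75 (95 percent interval -0.89 to 2.41), and its log2 value correlated with that of the first probe set at 0.32. The other 2 Slc1a2 probe sets were below the filter, with group means between 16.5 and 31.5 for rc_AI044517_g_at and no higher than 5.97 for rc_AI044517_at.

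Glutamine synthetase was covered by 4 probe sets, all tested. The brightest, rc_AI232783_s_at, read 2901, 2420 and 1950 on control arrays a, b and c, 3229, 2375 and 2010 at 1 day and 3894, 2732 and 3501 at 3 days. In each letter pair the 3-day array was the higher, yet 3-day array b lay below control array a, so the groups overlapped. Glul averaged 3376 ± 591 at 3 days and 2424 ± 475 in control, and its log2 fold change of 0.48 ± 0.27 (adjusted p = 1.00) became -0.12 after quantile normalization.

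The other Glul probe sets disagreed in direction. M91652complete_seq_g_at read 1463, 1593 and 487.9 in control and 1763, 2206 and 1647 at 3 days, so that all 3-day arrays exceeded all control arrays, with a log2 fold change of 0.83 ± 0.46 that stayed at 0.75 after quantile normalization. M91652complete_seq_at was lower at 3 days in each letter pair, at 795 ± 302 against 958 ± 310 in control, with a log2 fold change of -0.28 ± 0.37. The fourth, rc_AA852004_s_at, had a log2 fold change of 0.33 ± 0.38. Over the 9 arrays the correlations between Glul probe sets ran from -0.26 to 0.60.

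The signals of the water channel gene Aqp4 were ordered by letter. Its probe set U14007_at read 123.1, 206.9 and 43.2 on control arrays a, b and c, 145.6, 205.1 and 80.3 at 1 day and 115.9, 154.2 and 33.3 at 3 days. In every group b was the highest and c the lowest, and the ranges of all groups overlapped. At 3 days Aqp4 averaged 101.1 ± 61.8, against 124 ± 81.9 in control, and each 3-day array lay below the control array of its letter. The log2 fold change of -0.28 had a standard error of 0.64 without the letter in the fit and of 0.24 with it, and the adjusted p was 1.00 without and 0.906 with the letter. Without control array b the log2 fold change was 0.20, and without 3-day array c it was 0.35. At 1 day Aqp4 averaged 144 ± 62.4, and its log2 fold change against control was 0.35 ± 0.64, or -0.24 without control array c.

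Gja1, the gap junction gene, and S100b had similar profiles. Gja1 (rc_AI029183_s_at) read 157.2, 159.7 and 93.9 on the control arrays, 199.7, 113.8 and 28.3 at 1 day and 164.8, 69.2 and 118.4 at 3 days. S100b, a calcium-binding protein (S53527mRNA_s_at), read 2899, 2640 and 1727 in control, 3010, 2614 and 852.9 at 1 day and 3303, 1400 and 2835 at 3 days. Both genes were lowest on 1-day array c and next lowest on 3-day array b, and both kept array a high in every group.

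At 3 days against control the log2 fold change was -0.26 ± 0.59 for Gja1 and -0.0037 ± 0.49 for S100b; without 3-day array b these were 0.067 and 0.37. S100b was also 0.14 without control array a and 0.076 without control array b. At 1 day against control it was -0.58 ± 0.59 for Gja1 and -0.32 ± 0.49 for S100b, or -0.59 after quantile normalization for S100b, and without 1-day array c both turned positive, to 0.17 and 0.25. Mbp, a myelin protein made by oligodendrocytes, read 3466, 997.7 and 3840 on the 3-day arrays and 2771, 2270 and 1406 on the control arrays, and like S100b it was lowest at 3 days on array b. Mobp, another myelin gene, read 3110, 567.9 and 98.2 on the 1-day arrays and 2605, 793.3 and 1170 on the control arrays, with its lowest value on 1-day array c. The other oligodendrocyte genes were mixed. At 3 days Mag and Mal were also lowest on array b, while Cnp, Ugt8 and Pdgfra were highest on it. At 1 day Mog, Mal, Sox10 and Pdgfra were highest on array c. The part of oligodendrocyte RNA in the S100b values was not tested. A second S100b probe set, rc_AI146214_at, was below the filter at group means between 9.17 and 24.7.

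Aldoc encodes aldolase C, the brain form of the glycolytic enzyme, which in the forebrain is made mainly by astrocytes. Its brighter probe set, M63656_s_at, read 2777, 2660 and 1283 on control arrays a, b and c, 2866, 2970 and 1263 at 1 day and 3323, 3443 and 4356 at 3 days. The 3-day arrays were the 3 highest of the 9, and the lowest arrays were the c arrays of control and 1 day. Those c arrays also had the lowest maximum signals. Aldoc averaged 3707 ± 565 at 3 days and 2240 ± 831 in control, a log2 fold change of 0.80 ± 0.39 (95 percent interval -0.071 to 1.66; unadjusted p = 0.0683, adjusted p = 1.00). Without control array c the value was 0.44, and after quantile normalization it was 0.35.

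The second Aldoc probe set, X06984cds_s_at, read 2231, 2321 and 1767 in control, 1964, 2051 and 1829 at 1 day and 2523, 2537 and 3124 at 3 days. Here too the 3-day arrays were the 3 highest, and the correlation of the 2 Aldoc probe sets over the 9 arrays was 0.85. Its log2 fold change was 0.38 ± 0.22 at 3 days against control and 0.48 ± 0.22 at 3 days against 1 day (unadjusted p = 0.0565); after quantile normalization the first became -0.078 and the second 0.057. At 1 day against control the Aldoc probe sets were at 0.061 ± 0.39 and -0.10 ± 0.22.

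Agt encodes angiotensinogen, the precursor of the angiotensins, which in the brain is made chiefly by astrocytes. Its probe set rc_AA943892_at read 1184, 1084 and 1081 on control arrays a, b and c, 1003, 675.0 and 536.8 at 1 day and 1484, 127.2 and 884.2 at 3 days. The control arrays were close together, each 1-day array was below all of them, and 3-day array b was far below every other array. Agt averaged 738 ± 239 at 1 day and 1116 ± 58.5 in control, a log2 fold change of -0.64 ± 0.70 (95 percent interval -2.18 to 0.90; adjusted p = 1.00). At 3 days it averaged 832 ± 680, and the log2 fold change of -1.005 ± 0.70 against control became 0.039 without 3-day array b. The same array was low for Got2 (94.3, against 462.7 and 695.7) and Id3 (15.0, against 76.3 and 134.5), and what sets it apart was not tested.

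Sparcl1, also called hevin, is a secreted matrix protein of astrocytes that acts on synapse formation. U27562_at read 1734, 1307 and 782.3 on control arrays a, b and c, 1349, 1529 and 1882 at 1 day and 2133, 2042 and 1761 at 3 days. Each 3-day array was above all control arrays, by a narrow margin over control array a, and the c array was the lowest of its group in control and at 3 days but the highest at 1 day. Sparcl1 averaged 1978 ± 194 at 3 days and 1274 ± 477 in control, a log2 fold change of 0.70 ± 0.30 (95 percent interval 0.037 to 1.37). This was the smallest p among the 16 probe sets in this comparison (unadjusted p = 0.0403, adjusted p = 1.00). The value was 0.39 without control array c and 0.55 after quantile normalization. At 1 day the log2 fold change was 0.38 ± 0.30, and without the c arrays of control and 1 day it was -0.068.

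**Figure D2:**
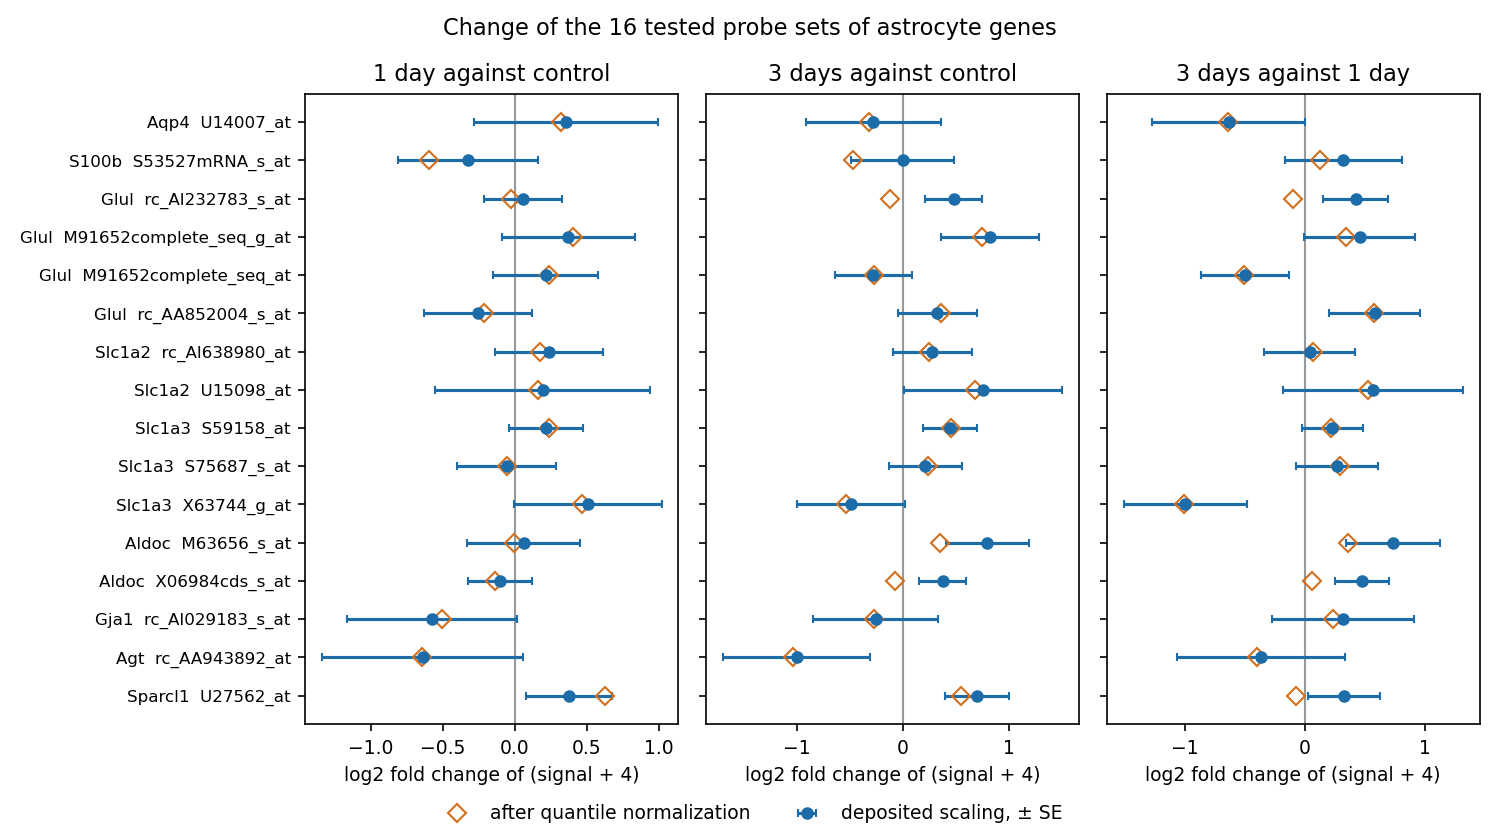
Log2 fold change of (signal + 4) for the 16 tested probe sets of astrocyte genes, with 1 panel for each comparison; filled points with bars are estimates ± SE from limma on the deposited scaling and open diamonds are the estimates after quantile normalization. At 3 days against control the diamond of the brightest Glul probe set (-0.12) and of the second Aldoc probe set (-0.078) fall on the other side of 0 from the filled points (0.48 and 0.38), and probe sets of the same gene differ in direction for Glul and Slc1a3.

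Counted over genes by the brightest probe set, 5 of 9 were higher at 3 days than in control and the median log2 fold change was 0.28, while 51.7 percent of all tested probe sets were higher and their median was 0.016. After quantile normalization 4 of the 9 were higher and the median was -0.12. At 1 day against control 6 of 9 were higher with a median of 0.061, beside 52.7 percent and 0.020 over all; without control array c, or without 1-day array a, 3 of 9 were higher. At 3 days against 1 day 7 of 9 were higher with a median of 0.32, beside 50.1 percent and 0.0013 over all. Without 1-day array c this was 4 of 9 with a median of -0.049, without 3-day array b the median was 0.57, and after quantile normalization it was 0.071. Without 3-day array b, 8 of 9 were higher at 3 days than in control.

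The groups did not overlap, with all 3-day arrays above all control arrays, for 5 of the 16 probe sets: both of Aldoc, 1 of Glul, 1 of Slc1a3 and that of Sparcl1. The same held for 4.73 percent of all tested probe sets. No astrocyte probe set had all 3-day arrays below all control arrays, which held for 3.01 percent of all. At 1 day against control 0 of 16 were wholly above control (2.63 percent of all) and 1 of 16, Agt, was wholly below (1.58 percent of all). At 3 days against 1 day 2 of 16, both of Aldoc, were wholly above (3.05 percent of all) and 0 were wholly below (2.67 percent of all). The comparisons at 3 days share the 3-day arrays, those against control share the control arrays, and probe sets of a gene share their transcript.

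Brightness moved with these counts. Of the 16 probe sets, 6 had a mean signal of at least 1000, and 4 of the 5 with 3-day arrays wholly above control were among them. Of the 245 other probe sets that bright, 72.2 percent were higher at 3 days than in control, the median change was 0.21 on the log2 scale, and 19.2 percent had all 3-day arrays above all control arrays. At 1 day against control the bright probe sets stood near the rest, with 52.2 percent higher and 1.22 percent wholly above. After quantile normalization 2 of the 16 astrocyte probe sets were wholly above control at 3 days, 1 of Aldoc and 1 of Slc1a3, beside 4.67 percent of all and 5.31 percent of the bright others. Without the c arrays of control and 1 day the astrocyte count was 5, beside 8.29 percent of all and 22.04 percent of the bright others.

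**Figure D3:**
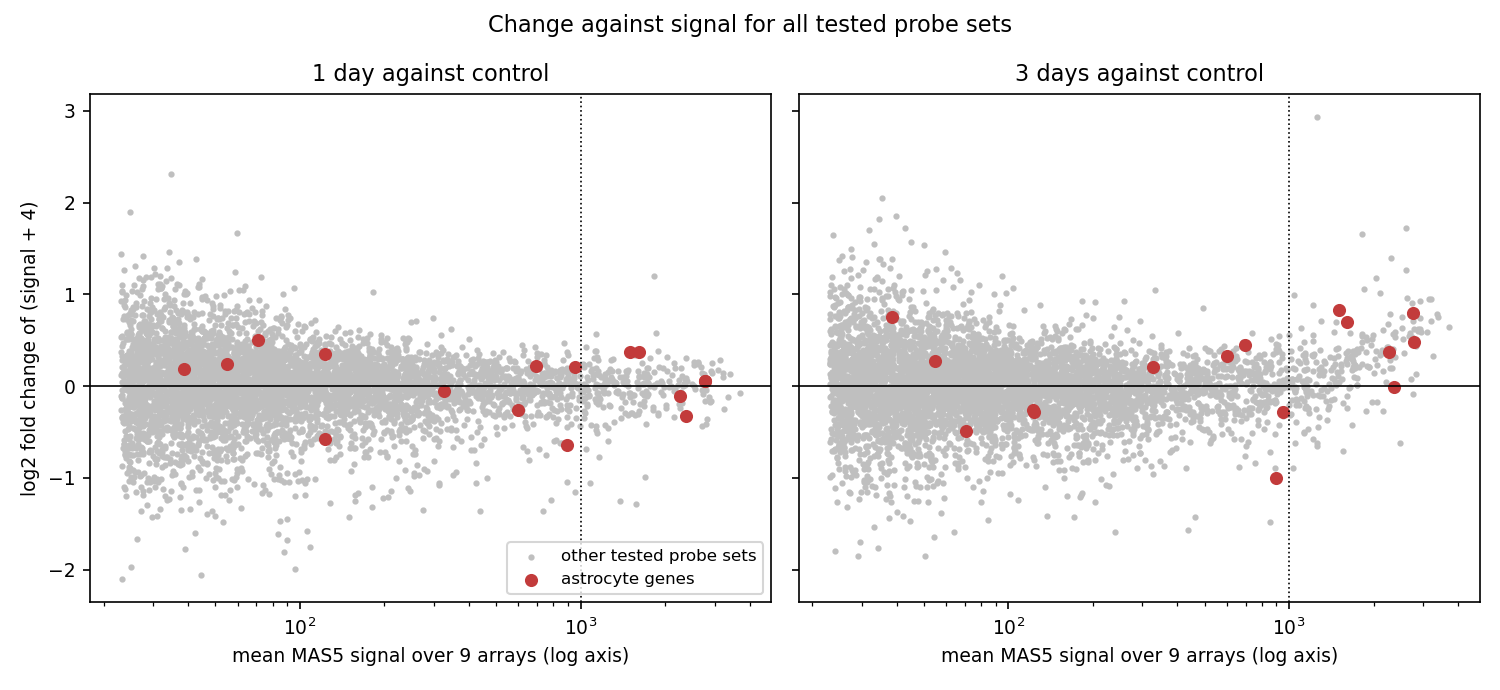
Log2 fold change of (signal + 4) against mean MAS5 signal over the 9 arrays (log axis) for all 5247 tested probe sets, at 1 day and at 3 days against control; red points are the 16 probe sets of astrocyte genes and the dotted line marks a mean signal of 1000. At 3 days the cloud bends upward above 1000, where 72.2 percent of the other probe sets are higher than in control, and the red points for Aldoc, Glul and Sparcl1 lie in that bend.

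Among themselves the 9 genes formed no single profile over the arrays. The 36 pairwise correlations of log2 values over the 9 arrays had a median of 0.26 and ran from -0.58 (Slc1a2 with Agt) to 0.96 (S100b with Gja1); 11 were above 0.5 and 8 below 0. The next tightest pairs included Glul with Aldoc at 0.82 and S100b with Glul at 0.70. Probe sets of the same gene were no more alike, with a median of 0.20 over 11 pairs. These points share arrays, scaling and letters and are given as a description. The mean of the standardised profiles was lowest on 1-day array c (-1.02) and control array c (-0.94), and on the remaining 7 it ran from 0.045 to 0.59.

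For each gene the most similar profile among all other tested genes was looked up, by correlation of log2 values over the 9 arrays. Aldoc was closest to a probe set of Apoe (X04979_at) at 0.993. Apoe, a lipid carrier made by astrocytes, read on it 4295 on 3-day array c, its highest value, 438.8 on 1-day array c and 500.6 on control array c. Aqp4 was closest to Rgs8 at 0.992, S100b to Nf1 at 0.987, Gja1 to Nmu at 0.977 and Agt to Atp5pb at 0.973. Slc1a2 was closest to Slc19a1 at 0.955, Glul to Pax8 at 0.944, Slc1a3 to Nolc1 at 0.901 and Sparcl1 to RT1-CE16 at 0.875. The median best correlation over all tested probe sets was 0.953, so with 9 arrays such values are common. The mean profile of the 9 genes was closest to Zp1 at 0.977, Tbxa2r at 0.958, Pkm at 0.948, Sbk1 at 0.947 and Oxt at 0.945.

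**Figure D4:**
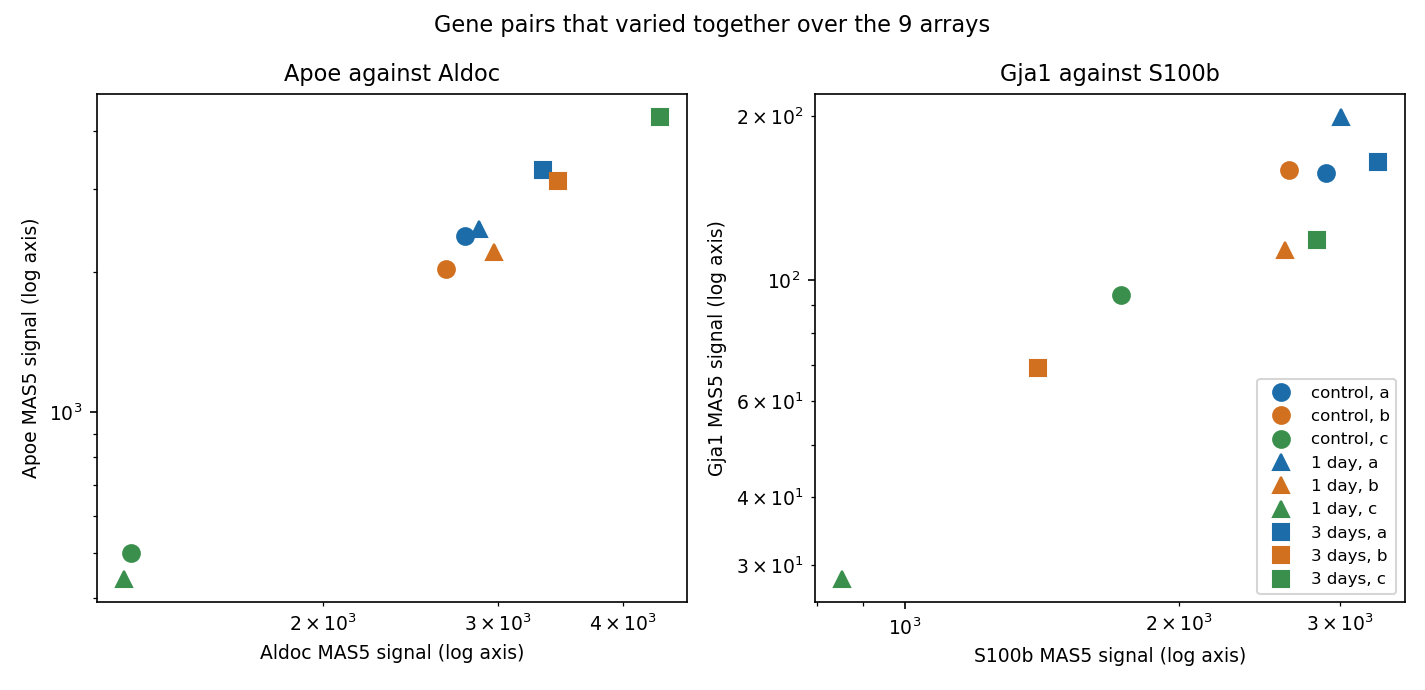
MAS5 signals (log axes) of Apoe (probe set X04979_at) against Aldoc, the closest profile to that gene, and of Gja1 against S100b, the tightest pair among the astrocyte genes, on the 9 arrays; marker shape gives the group and colour the letter. In the Apoe panel the c arrays of control and 1 day sit at the bottom left and 3-day array c at the top right, and in the Gja1 panel 1-day array c and 3-day array b are the lowest.

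Other genes of astrocytes showed no common direction. In a list of 50 further astrocyte genes, 31 were tested, 17 were higher and 14 lower at 3 days than in control, the median log2 fold change was 0.016 and 0 were called; at 1 day against control the counts were also 17 and 14. Cst3, a secreted protease inhibitor, read 3321, 3535 and 3946 on the 3-day arrays and 2631, 2888 and 1803 on the control arrays, with no overlap, and its log2 fold change of 0.58 ± 0.31 became -0.015 after quantile normalization. The probe sets of Apoe differed: the brighter, S76779_s_at, was at 0.53 ± 0.28, or -0.066 after quantile normalization, and X04979_at was at 1.40 ± 0.69, or 1.08 after it. Clu, a secreted chaperone, and Mt3, a metal-binding protein, were at 0.39 ± 0.37 and 0.49 ± 0.30.

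The rest of the named genes of that list lay on both sides of 0. Vim, an intermediate filament, had a log2 fold change of 0.016 ± 0.31 at 3 days against control. Id3, a regulator of transcription, read 76.3, 15.0 and 134.5 on the 3-day arrays and 83.3, 124.9 and 241.4 on the control arrays, at -1.24 ± 0.63 (unadjusted p = 0.0761). Ezr, which links actin to the membrane of fine astrocyte processes, was at 30.5, 51.2 and 40.8 on the 3-day arrays and 56.7, 59.3 and 57.5 on the control arrays, without overlap, and its log2 fold change was -0.49 ± 0.36. The inward rectifier potassium channel genes Kcnj10 and Kcnj16 were at 0.098 ± 0.64 and -0.32 ± 0.35 at 3 days, and Kcnj16 at 0.44 ± 0.35 at 1 day.

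Around the glutamate transporters and Glul, 14 of 24 genes of the glutamate cycle were tested, with 7 higher and 7 lower at 3 days than in control, a median of 0.0087 and 0 called. Glud1, glutamate dehydrogenase, read 835.2, 896.2 and 810.5 on the 3-day arrays and 917.1, 1175 and 955.8 on the control arrays, without overlap, at -0.25 ± 0.21. Grm3, a metabotropic glutamate receptor of astrocytes, and Got2, the mitochondrial aspartate aminotransferase, were at 0.31 ± 0.30 and -0.58 ± 0.65. The neuronal transporter gene Slc1a1 was at -0.092 ± 0.42. At 1 day Gad1, which makes GABA from glutamate, was at -1.36 ± 0.87 against control and Asl, an enzyme of arginine synthesis, at -1.08 ± 0.88; both were lowest on 1-day array c (49.8 and 1.6).

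Beyond Agt, 7 of 16 genes of the renin-angiotensin system were tested, and 6 were higher and 1 lower at 3 days than in control, with a median of 0.23 and 0 called. Lnpep, a peptidase that also cleaves vasopressin and oxytocin, read 45.9, 41.1 and 26.4 on the 3-day arrays and 9.4, 24.6 and 15.7 on the control arrays. These groups did not overlap, and the log2 fold change was 1.06 ± 0.51 (unadjusted p = 0.0625). Lnpep was dim, and its control mean of 16.6 is below the filter value of 23.1. It passed the filter only through the dehydrated groups, with means of 42.3 at 1 day and 37.8 at 3 days. The converting enzyme Ace and the receptor Agtr1a were at 0.24 ± 0.31 and 0.39 ± 0.55, the protease Ctsd at 0.23 ± 0.29, and at 1 day the mast cell protease Cma1 was at -0.86 ± 0.67.

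Of 28 genes of water, potassium and gap junction handling, 14 were tested; 8 were higher and 6 lower at 3 days than in control, the median was 0.053 and 0 were called. Aqp7, an aquaglyceroporin, read 63.9, 59.8 and 62.9 on the 3-day arrays and 57.0, 45.8 and 32.4 on the control arrays, without overlap, at 0.46 ± 0.35. Atp1b2, a subunit of the sodium pump of glia, and the bicarbonate transporter Slc4a4 were at -0.28 ± 0.28 and -0.35 ± 0.35, and the connexin gene Gjb2 was at -0.69 ± 0.48 at 1 day. In a list of glial shape and adhesion genes 15 of 24 were tested, with 10 higher and 5 lower, a median of 0.13 and 0 called. Ncam1, a cell adhesion molecule, was at 0.55 ± 0.38 and S100a10 at 0.62 ± 0.54, and at 1 day the proteoglycan gene Cspg5 was at 0.34 ± 0.24.

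The other glycolytic genes, set beside Aldoc, showed no common direction. Of 20 listed, 13 were tested, and 7 were higher and 6 lower at 3 days than in control, with a median of 0.011 and 0 called. Pgk1 read 532.5, 616.0 and 539.7 on the 3-day arrays and 722.1, 1074 and 1031 on the control arrays, a log2 fold change of -0.72 ± 0.30 (unadjusted p = 0.0347). These groups did not overlap, and after quantile normalization the value was -0.73. Pgam1 was at 1.18 ± 0.56 and read 767.5 on 1-day array c and 508.7 on control array c, against at least 1702 on every other array. Aldoa, the muscle and general form of aldolase, was at 0.15 ± 0.21, or -0.030 after quantile normalization, and Gpd1 was at 0.62 ± 0.39. At 1 day Hk2, a hexokinase, was at -1.19 ± 0.49 (unadjusted p = 0.0324) and Pfkp, a phosphofructokinase, at -0.23 ± 0.23.

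Markers of the other cells of the tissue were followed as summed signals of each list's genes. Each gene entered by its brightest probe set, and genes below the filter were included. The summed astrocyte signal lay between 7600 and 12315 on control arrays, between 7213 and 12679 on 1-day arrays and between 10853 and 15186 on 3-day arrays. The further astrocyte genes summed to between 14257 and 16523 on control arrays and between 14259 and 17503 on 1-day arrays. On 3-day arrays they summed to between 17160 and 21842, above every control sum. Magnocellular genes summed to between 8128 and 11751 on control arrays, between 8763 and 14722 on 1-day arrays and between 14667 and 17061 on 3-day arrays, with 12 of 16 higher at 3 days than in control and a median of 0.32. Among them Avp, the vasopressin gene, read 3871, 4108 and 5678 on the 3-day arrays and 2868, 2487 and 1765 on the control arrays, at 0.95 ± 0.33, or 0.30 after quantile normalization. Cck and Th, a neuropeptide and the tyrosine hydroxylase of these neurons, were at 1.57 ± 0.51 and 0.75 ± 0.27. Cck was dim, with control signals of 19.5, 23.5 and 12.2, whose mean of 18.4 is below the filter value of 23.1.

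General neuronal markers had sums between 9887 and 11343 on control arrays, between 10157 and 10950 on 1-day arrays and between 10766 and 11977 on 3-day arrays, and 7 of 14 higher at 3 days than in control. Snap25, a synaptic protein, was at 0.18 ± 0.22, Syt1 at 0.63 ± 0.42, Uchl1 at 0.37 ± 0.44, and Nefh at -0.29 ± 0.33 at 1 day. Oligodendrocyte sums lay between 5501 and 8389 on control arrays, between 4682 and 8802 on 1-day arrays and between 4151 and 8775 on 3-day arrays, with 4 of 10 genes higher at 3 days. Mbp was at 0.19 ± 0.52, Sox10 at -0.45 ± 0.32 and Ugt8 at -0.33 ± 0.29, while Mobp was at -1.25 ± 1.01 at 1 day. Cspg4, of their precursors, was at 1.54 ± 0.45 at 3 days and was dim, with control signals of 29.1, 9.7 and 37.1. Microglial sums lay between 1564 and 1675 on control arrays, between 1843 and 2262 on 1-day arrays and between 1808 and 1958 on 3-day arrays. Of 8 microglial genes 6 were higher at 3 days, among them C1qc at 0.45 ± 0.27 and Ctss at 0.26 ± 0.22. At 1 day 5 were higher and 3 lower than in control, with Cx3cr1 and Ptprc at 0.69 ± 0.33 and 1.03 ± 0.64. Ptprc was dim, with control signals of 43.5, 7.2 and 10.7. Its means of 20.5 in control and 21.9 at 3 days are below the filter value of 23.1, and its 1-day mean was 36.6.

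The summed signals of blood and vessel markers lay between 3578 and 3751 on control arrays, between 4127 and 5639 on 1-day arrays and between 2233 and 3030 on 3-day arrays, with 8 of 10 lower at 3 days than in control and a median of -0.41. Hbb, a haemoglobin gene of red cells, read 836.2, 1023 and 1136 on the 3-day arrays and 1624, 1564 and 1653 on the control arrays, at -0.70 ± 0.23; Hbb-b1 was at -0.50 ± 0.26 and Acta2, of vascular smooth muscle, at 0.48 ± 0.39. Markers of ependyma, tanycytes and choroid plexus summed to between 445 and 638 on control arrays, between 179 and 588 on 1-day arrays and between 459 and 525 on 3-day arrays. Among them were Igfbp2 at 0.36 ± 0.40, Enpp2 at -0.44 ± 0.54 and Igfbp5 at -0.46 ± 0.78 at 3 days and Ttr at -1.02 ± 0.59 at 1 day. The brightest genes weighed most in the sums: Hbb and Hbb-b1 among blood and vessel markers and Ctss among microglial ones. Among the further astrocyte genes these were Apoe, Cst3 and Clu. Avp and Oxt were on average the brightest magnocellular genes. Oxt read 208.3 on control array c and 272 on 1-day array c, against at least 2331 on every other array. No gene of these lists was called, and none had its brightest probe set at 0 on any array. The part of these cells in the astrocyte values was not tested.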

How the data were processed

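The values are MAS5 intensities on a linear scale, deposited by the authors as one table for 9 rat arrays; MAS5 is named, without a version, in the submitters' processing notes. It gives 1 signal per probe set from perfect-match and mismatch probes, so dim signals are noisy, and 15 values in the table are 0. Of these, 13 are on 1-day array c. Each array's mean, trimmed by 2 percent on both sides, was 100.1 in the deposited intensities. Detection calls and scanner files were not used here, and no genome build is stated for the table. Of 8799 rows 59 are Affymetrix controls; of the other 8740 probe sets 7006 have 1 gene symbol in the platform annotation, 308 several and 1426 none, and only those with 1 are named. Levels of different genes were not tested against each other. They served only to name the brightest genes of a sum and to group probe sets by mean signal. The summed signals of a list are set side by side between arrays only.

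From the intensities log2(signal + 4) was computed; fold changes on this scale understate changes at low signal. Testing was limited to a mean signal of at least 23.1 (the 40th percentile). A model of 3 group means was fitted to the 9 arrays with limma 3.58.1 under R 4.3.3 (6 residual degrees of freedom, intensity-trended variance prior, two-sided), with Benjamini-Hochberg adjustment over 5247 probe sets and a threshold of 0.05. The fit was tested on simulated data with planted changes larger than those of the astrocyte genes and no variation shared by letter. That test does not speak to changes as small as these or to arrays that vary together. The precision is limited by the number of arrays: the median standard error was 0.40. A gene is led by its probe set with the highest mean. Figures used Python 3.11.15 and matplotlib 3.10.9. Promoter windows are from RefSeq (GRCr8), matched by symbol.

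The letters a, b and c in the titles were checked for pairing: after subtraction of group means, the 9 pairs of arrays with the same letter in different groups had correlations between 0.17 and 0.47, and the 18 pairs with different letters between -0.33 and 0.12. Arrays of a letter thus varied together, but the labels do not say what a letter stands for. The main fit left the letter out, and a fit with the letter as a block was an alternative. Standard errors, intervals and p-values are from the fit without the letter unless the letter is named. The median residual SD was 0.48 without the letter and 0.36 with it. Other alternatives were no pseudocount or one of 16, no filter or one at the 60th percentile, median centring, quantile normalization, variance priors without trend or robust, fits without the third group, leaving out each array, and leaving out both short-range c arrays.

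The astrocyte genes and all gene lists were chosen with earlier results of these data known, so nothing is tested over a list. The genes named are all astrocyte probe sets, up to 3 tested genes of each other list with the smallest p at 3 days and up to 2 at 1 day against control, a set of genes of interest whatever their values (Vim, Kcnj10, Apoe, Clu, Cst3, Mt3, Gad1, Slc1a1, Ace, Agtr1a, Aldoa, Avp, Snap25, Mbp and Hbb; Slc38a2, Aqp1 and the rest of that set had no tested probe set with 1 symbol), and the most similar profiles. Got2 and Id3 were also set beside 3-day array b, and oligodendrocyte genes, Mbp and Mobp first, beside S100b, after their values were seen.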

Additional observations from a re-analysis of the deposited data

How the results depend on the processing

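The counts of calls, in the 3 comparisons and in the F test over the groups, were 0 in all 79 values computed. The leading probe sets of the 9 genes have 540 values over 20 settings each. In 243 of these the setting could not move the fold change or left it as it was; of the 297 that moved, 265 kept their direction and 32 turned. Their adjusted p ran from 0.770 to 1.00. With the letter as a replicate block no call changed; over all tested probe sets the smallest adjusted p was 0.958 at 1 day against control, 0.873 at 3 days against control and 0.770 at 3 days against 1 day, and 136, 270 and 275 probe sets had an unadjusted p under 0.05. The cause of the turns below was not tested. Under quantile normalization the values that turned were Glul (-0.025 at 1 day, -0.12 at 3 days against control, -0.096 at 3 days against 1 day), Aldoc at 1 day (-0.0091) and Sparcl1 at 3 days against 1 day (-0.075); the median of the 9 genes at 3 days against control was -0.12, and the count of probe sets wholly above control was 2. Without control c and 1-day c, an alternative named with earlier results known, S100b at 1 day was 0.020, Sparcl1 at 1 day -0.068, and at 3 days against 1 day S100b was -0.25, Slc1a2 -0.049 and Gja1 -0.43, with 4 of 9 genes higher. The last 2 settings for the count of probe sets wholly above control were added after seeing the data.

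Leaving out each array in turn, the median of the 9 genes at 1 day ran from -0.24 (without control array c) to 0.25 (without 1-day array c), and at 3 days against 1 day from -0.049 to 0.57. The number of genes higher ran from 3 to 8 at 1 day, from 5 to 8 at 3 days against control and from 4 to 7 at 3 days against 1 day. At 1 day against control Aqp4 ran from -0.24 to 0.83, S100b from -0.66 to 0.25, Glul from -0.13 to 0.21, Slc1a2 from -0.017 to 0.41, Aldoc from -0.30 to 0.46 and Gja1 from -1.15 to 0.17. At 3 days against control Aqp4 ran from -0.88 to 0.35, S100b from -0.25 to 0.37, Gja1 from -0.54 to 0.067 and Agt from -1.71 to 0.039. At 3 days against 1 day S100b ran from -0.25 to 0.70, Slc1a2 from -0.23 to 0.30, Gja1 from -0.43 to 0.90 and Agt from -1.07 to 0.68. With 3 arrays a group, a probe set near the median standard error of 0.40 needs a large difference to pass, so a p above the threshold does not show that groups were alike.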
